A study of Mus musculus with 20 samples.

Results

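The genes described here are 9 genes known for their expression in the choroid plexus, namely Ttr, Sostdc1, Enpp2, Kl, Folr1, Clic6, Kcnj13, Aqp1 and Otx2, read in hippocampal RNA of 20 mice. They were chosen by name, and each was represented by the probe set listed for that symbol alone that had the highest mean over the 20 arrays. Of the 9 genes, 8 had such a probe set, among 18193 genes with one on the array, and all 8 passed the filter on low values. No probe set was listed for Enpp2 alone, so it has no value here.

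The choroid plexus is a sheet of epithelium on a vascular core that hangs into the brain ventricles, secretes cerebrospinal fluid and forms the barrier between blood and that fluid. In the lateral ventricle it is attached along the fimbria, next to the hippocampus. Its epithelial cells make transthyretin in large amounts, carry folate, ions and water from blood to fluid, and depend on the homeobox factor Otx2 to form and to persist.

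The male mice were wild-type C57BL/6J or carried a homozygous targeted disruption of Hsd11b1 on the same background (Hsd11b1-/-). Hsd11b1 encodes 11β-HSD1, the enzyme that regenerates active glucocorticoid within cells. There were 4 mice in each of 5 groups, with 1 Affymetrix mouse expression array per mouse: WT_Y (wild-type, 6 months), KO_Y (Hsd11b1-/-, 6 months), WT_AU and WT_AI (wild-type, 24 months, classed by a Y-maze test as memory-unimpaired and memory-impaired) and KO_A (Hsd11b1-/-, 24 months). WT_A stands for the 8 mice of WT_AU and WT_AI together. The disruption is present in all cells from conception. Maze performance set the class of the aged wild-type mice, and the study's methods state that mice were then picked at random from each class. Its results count 4 unimpaired aged wild-type mice, as many as there were arrays in WT_AU. Values are normalised intensities on a linear scale, of which the median over all probe sets was between 39.4 and 41.3 on every array, and differences are given on the log2 scale. Hsd11b1 read from 549.6 to 804.2 in the wild-type arrays and from 39.5 to 65.2 in the Hsd11b1-/- arrays, so that the genotypes match the labels. Neurod6, a transcription factor of hippocampal pyramidal neurones, read from 1098.5 to 2312.1, so that this marker was present in each sample. It does not show that the samples were alike in tissue. The mean log2 value of the 9 hippocampal neurone markers kept was lowest in mouse WT_Y-374, at -0.66 from the mean over all mice.

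The stretches before the transcription starts of these genes were searched for 2 short motifs, and those with a match are shown. RefSeq promoters (GRCm38.p6) were matched by symbol for 4 of the 9 genes (Kcnj13, Kl, Aqp1 and Otx2, with 7 starts), and the 250 bases before each start were searched on both strands. TATAAA, the core of a TATA box, was in 2 of the 7 stretches and in 12.4% of 32851 stretches of all genes. TAATCC, the core that the homeodomain of Otx2 binds, was in 1 of the 7 and in 6.25% of all stretches. The 2 motifs do not overlap in these stretches. In 35 stretches of the other choroid plexus genes described below, TATAAA was in 14.3% and TAATCC in 5.71%. The sequences below are written 5′ to 3′ on the strand of the gene, with the motif in capitals. That of Kcnj13 lies at chr1:87394730-87394818, minus strand, with TATAAA beginning 29 bases before the start. The first of Otx2 lies at chr14:48667771-48667894, minus strand, with TATAAA beginning 192 bases before the start. The second of Otx2 lies at chr14:48665255-48665359, minus strand, before a start that lies within the gene, where the capitals are the reverse complement of TAATCC and begin 211 bases before that start.
Kcnj13: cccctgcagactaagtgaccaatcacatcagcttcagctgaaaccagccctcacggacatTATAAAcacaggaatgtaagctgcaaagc
Otx2, first start: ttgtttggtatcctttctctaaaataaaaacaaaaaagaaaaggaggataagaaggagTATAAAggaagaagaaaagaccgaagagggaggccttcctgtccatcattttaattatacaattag
Otx2, start within the gene: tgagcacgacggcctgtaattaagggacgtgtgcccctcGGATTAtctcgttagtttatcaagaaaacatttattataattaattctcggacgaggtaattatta
A match is a description of the letters and not a binding site.

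Ttr encodes transthyretin, the carrier of thyroxine that the epithelium secretes into the fluid. Its intensity was 20247.2, 8464.7, 21917.7 and 20542.0 in mice WT_Y-369, WT_Y-371, WT_Y-373 and WT_Y-374. In mice KO_Y-575, KO_Y-578, KO_Y-580 and KO_Y-585 it was 18193.9, 19716.1, 1142.8 and 7854.8. Among the young mice, WT_Y-371, KO_Y-580 and KO_Y-585 stood below the rest and the groups overlapped. Ttr read 17093.7, 16726.3, 4049.5 and 19807.9 in mice WT_AU-126, WT_AU-23, WT_AU-26 and WT_AU-57. It read 11098.9, 20247.2, 3966.3 and 20038.5 in mice WT_AI-14, WT_AI-21, WT_AI-49 and WT_AI-51. In mice KO_A-41, KO_A-42, KO_A-222 and KO_A-223 it read 6507.1, 19480.2, 20042.2 and 19988.2. Mice WT_AU-26, WT_AI-49 and KO_A-41 were the lowest of their groups, and the 3 groups overlapped. Over the 20 mice the highest value was 19.2-fold the lowest, and on 11 of the 20 arrays the highest value of all probe sets belonged to a Ttr probe set. Whether the signal of the high arrays reached the limit of the probes was not tested.

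Sostdc1, which encodes a secreted antagonist of BMP and Wnt signals, ranged from 48.4 in mouse WT_AI-49 to 603.1 in mouse WT_Y-374. Its mean ± SEM (n = 4 mice) was 404 ± 110 in WT_Y, 181 ± 68.0 in KO_Y, 169 ± 37.4 in WT_AU, 216 ± 87.5 in WT_AI and 318 ± 91.6 in KO_A. The spread within each group was wide enough that all 5 groups overlapped.

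Kl encodes Klotho, a membrane protein that acts as co-receptor for FGF23 and is also shed into the fluid. Its intensity was lowest in mouse KO_Y-580 (81.8) and highest in mouse WT_Y-374 (568.9), with means of 416 ± 109 in WT_Y, 201 ± 71.4 in KO_Y, 179.6 ± 30.3 in WT_AU, 215 ± 72.9 in WT_AI and 265 ± 58.9 in KO_A. Folr1 encodes the folate receptor that carries folate across the epithelium. Folr1 read 675.0, 91.0, 585.7 and 807.7 in the WT_Y mice and 219.3, 451.0, 28.9 and 58.7 in the KO_Y mice, in the order of mice given for Ttr. In the same order it read 222.3, 179.5, 39.5 and 348.0 in WT_AU, 72.1, 533.9, 30.6 and 399.3 in WT_AI, and 56.4, 368.9, 368.9 and 575.9 in KO_A. The mice that were low for Ttr were again low for Folr1, and the groups overlapped.

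Clic6, a member of the chloride intracellular channel family, ranged from 22 (mouse KO_Y-580) to 1039.0 (mouse WT_Y-374), with means of 685 ± 189 in WT_Y, 255 ± 117 in KO_Y, 259 ± 72.1 in WT_AU, 301 ± 122 in WT_AI and 403 ± 109 in KO_A. Kcnj13 encodes Kir7.1, an inwardly rectifying potassium channel of the apical membrane. Kcnj13 read 778.3, 47.1, 681.9 and 1249.2 in the WT_Y mice and 250.9, 524.6, 37.3 and 90.0 in the KO_Y mice, in the order of mice given for Ttr. It read 318.5, 219.7, 89.7 and 391.6 in WT_AU, 99.2, 576.2, 81.7 and 401.1 in WT_AI, and 67.8, 382.8, 455.0 and 549.1 in KO_A. In WT_Y the highest mouse was 26.5-fold the lowest, the widest range that Kcnj13 had in any group. Aqp1 encodes the water channel of the apical membrane. It ranged from 20.3 to 178.7, and its value lay below the array's median on 7 of the 20 arrays.

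Otx2 read 236.0, 55.4, 187.9 and 262.0 in the WT_Y mice and 70.5, 130.9, 12 and 35.9 in the KO_Y mice, in the order of mice given for Ttr. It read 80.8, 77.1, 22.9 and 120.5 in WT_AU, 28.0, 161.0, 21.6 and 144.1 in WT_AI, and 25.1, 172.3, 252.5 and 181.8 in KO_A. The order of mice was close to that of the other genes, except that mouse KO_A-222 was the highest of its group for Otx2 and not for Folr1, Kcnj13, Clic6, Kl, Aqp1 or Sostdc1. Otx2 lay below the array's median on 6 arrays.

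**Figure D1:**
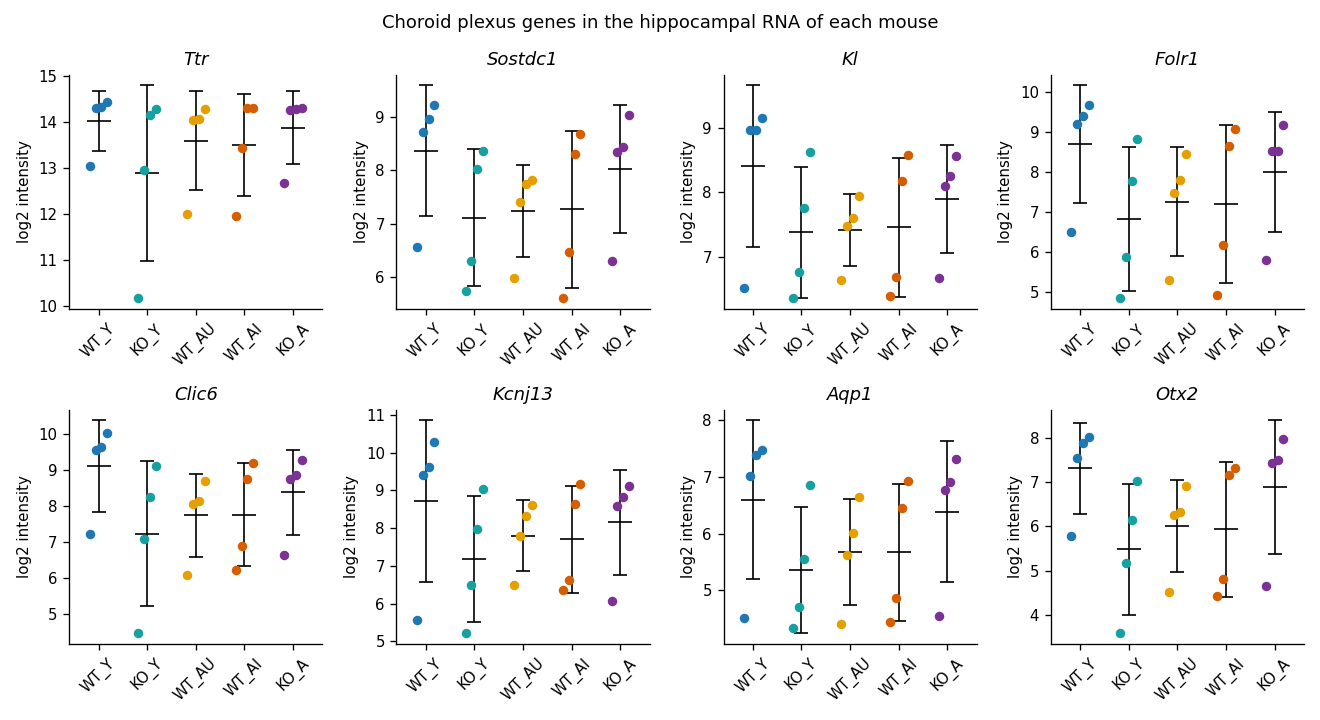
Log2 normalised intensity (y axis) of the 8 genes in each mouse (points) by group (x axis), with the group mean and SD (black bars, n = 4 mice). Each group holds 1 or 2 mice that lie below the gap in the mean of the 8 genes, and the groups overlap for every gene.

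The arrays were compared between groups to ask whether age, genotype or memory status went with the level of these genes. In bulk tissue, fewer cells of a type and less RNA per cell cannot be told apart. With limma and Benjamini-Hochberg adjustment over the 16995 probe sets kept, 0 of the 8 genes were called at an adjusted p under 0.05 in any of 9 comparisons. At an unadjusted p under 0.05 the same fit counted 1 of the 8 (Otx2) for KO_Y against WT_Y and 1 of the 8 (Otx2) for the age effect in Hsd11b1-/- minus that in wild-type mice, where 3.71% and 10.5% of all probe sets did so. At an adjusted p under 0.05, the share of all probe sets called was 0.594% for WT_A against WT_Y, 0.43% for WT_AU against WT_Y, 0.141% for WT_AI against WT_Y, 2.41% for KO_A against KO_Y and 0.129% for KO_Y against WT_Y. It was 0.0294% for KO_A against WT_A, 0.0% for WT_AI against WT_AU (150 probe sets at an unadjusted p under 0.05), 0.0118% for WT_AI against KO_A and 0.0471% for the difference between the age effects. With so few probe sets called, none among 8 is near the background and says nothing about these genes.

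For age in wild-type mice, the fold changes of the 8 genes in WT_A against WT_Y were all below 0, from -0.48 (Ttr) to -1.46 (Folr1) on the log2 scale, with a median of -1.04 against -0.01 over all probe sets tested. The limma adjusted p was 0.791 or above for each. The 95% interval of Folr1 ran from -3.34 to 0.42. WT_AU and WT_AI gave similar medians against the same WT_Y mice, -1.06 in both cases, and without mouse WT_AI-49 that of WT_AI was -0.58, and with array weights -0.67. Alb, the serum albumin gene of liver, read from 32.9 to 2911.9 within WT_Y, and its 2 highest values, in mice WT_Y-374 and WT_Y-369, were in mice that were also high for these genes. Mouse WT_Y-373, with the lowest Alb of the group (32.9), was high for these genes too. Mouse WT_Y-371, low for these genes, had an Alb value of 117.0, below the 2 highest and above that of mouse WT_Y-373. Without mouse WT_Y-371 the median was -1.79 for WT_A, -1.77 for WT_AU and -1.80 for WT_AI. At the other end of the leave-outs of 1 mouse, it was -0.77 for WT_A without mouse WT_Y-374 and -0.72 for WT_AU without mouse WT_AU-26. Without the 4 mice of highest Alb, a choice made after seeing the data, the median for WT_A was -0.40, and the sign of Kcnj13 turned to 0.26. That fit left only mice WT_Y-371 and WT_Y-373 in WT_Y, so an effect of Alb cannot be told apart from the weight of the low mouse WT_Y-371.

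For age in Hsd11b1-/- mice, all 8 fold changes in KO_A against KO_Y were above 0, from 0.52 (Kl) to 1.41 (Otx2), with a median of 1.01 against 0.02 over all probe sets. None passed (limma adjusted p from 0.349 to 0.66), and the median was 0.39 without mouse KO_Y-580, 1.65 without mouse KO_A-41, 1.56 without mouse KO_Y-578 and 2.06 with array weights. The 2 age effects therefore lay on opposite sides of 0, and their difference was tested directly. It was 2.75 for Otx2, with a 95% interval of 0.40 to 5.11 and an adjusted p of 0.433, and 1.48 for Ttr, with an interval of -0.62 to 3.58 and an adjusted p of 0.584. Without mouse KO_Y-580 the difference for Ttr was 0.57, and with array weights 2.52. For none of the 8 did that difference pass the test.

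For genotype, the 8 fold changes in KO_Y against WT_Y were all below 0, from -1.03 (Kl) to -1.88 (Clic6), with a median of -1.40. That median was -2.14 without mouse WT_Y-371 and -0.89 without mouse KO_Y-580. Otx2 had the smallest p, with -1.84, an interval of -3.62 to -0.05 and a limma adjusted p of 0.9998. The two-sided exact permutation test for Otx2 gave p = 0.0857, where 4 mice against 4 can give no less than 0.0286. In KO_A against WT_A the 8 fold changes lay between 0.33 and 0.92, and in WT_AI against KO_A between -0.96 and -0.38, with no call in either. The median in KO_A against WT_A, 0.67, was 0.36 without mouse KO_A-223, 0.39 without mouse WT_AI-49, 0.40 without mouse WT_AU-26, 1.27 without mouse KO_A-41 and 1.33 with array weights. That in WT_AI against KO_A, -0.67, was -1.26 without mouse KO_A-41, -1.27 with array weights, -1.11 without mouse WT_AI-21, -0.40 without mouse WT_AI-14, -0.36 without mouse KO_A-223 and -0.09 without mouse WT_AI-49.

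For memory status, WT_AI and WT_AU differed little in their means beside a wide spread. The fold changes ran from -0.10 (Kcnj13) to 0.04 (Kl), and the interval of Kl from -1.27 to 1.35 still allowed a difference of more than 1 log2 unit in either direction. The signs changed from one alternative to the next, and a direction cannot be given.

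**Figure D2:**
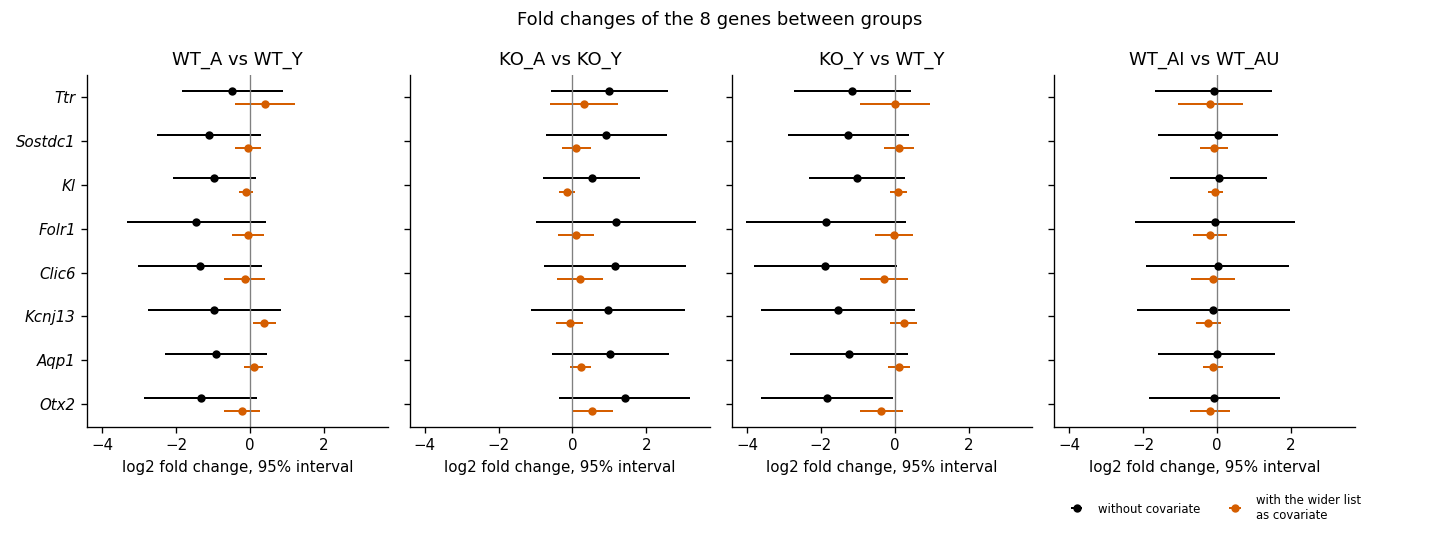
Log2 fold change with its 95% interval (x axis) of each gene (y axis) in 4 comparisons, from the limma fit without a covariate (black) and with the mean of 22 other choroid plexus genes as a covariate (orange). Most black intervals reach across 0, that of Otx2 in KO_Y against WT_Y excepted, and the orange intervals are narrower.

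Most of the variance lay between mice of the same group. Of the variance of the log2 values over the 20 mice, 74.8% (Otx2) to 87.6% (Kcnj13) was within groups. The SD within groups was from 0.98 (Kl) to 1.64 (Folr1) log2 units, where the median over all probe sets tested was 0.116. For each of the 8 genes, between 13 and 57 of the 16995 probe sets had a larger SD.

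The genes varied together within groups. With group means subtracted, the correlation of each gene with the mean of the other 7 was asked over 20 mice by 100000 permutations of mice within groups, two-sided. Folr1 had r = 0.989 and rho = 0.963, and Ttr, at the other end, r = 0.887 and rho = 0.820, with adjusted permutation p of 1.33e-05 and 2e-05. The other 6 genes had r from 0.963 (Aqp1) to 0.980 (Sostdc1). Among the 28 pairs of genes r was between 0.802 and 0.988, with a median of 0.955, and was above 0.9 in 22. Without mice KO_Y-580 and WT_AI-49, the farthest from the median, r was between 0.920 (Ttr) and 0.995 (Clic6). By rank the relation of Ttr was weaker without them, with rho from 0.604 (Ttr) to 0.981 (Clic6).

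The mice were not spread evenly along this axis. The mean log2 value of the 8 genes had a gap of 1.12 log2 units in a range of 4.19, the next widest being 0.70. Below it lay 7 mice (WT_Y-371, WT_AU-26, WT_AI-14, WT_AI-49, KO_Y-580, KO_Y-585 and KO_A-41), and above it the other 13, with every group on both sides. The correlations above include the step between these sides. On each side, as a description with no test and with values not centred by group, r of each gene with the mean of the others was from 0.859 (Ttr) to 0.982 (Clic6 and Folr1) among the 13 mice, and from 0.443 (Kcnj13) to 0.982 (Ttr) among the 7. The sides were set by the mean of the genes themselves after their values were seen, which narrows the range on each.

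**Figure D3:**
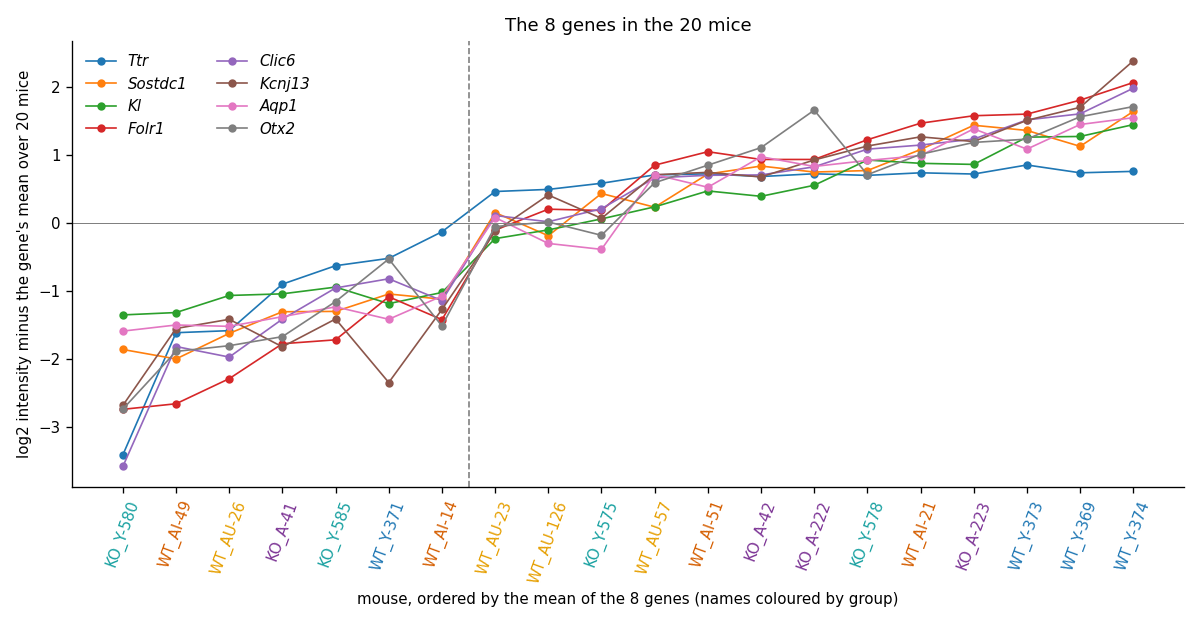
Log2 intensity of each gene minus its mean over the 20 mice (y axis) in the mice ordered by the mean of the 8 genes (x axis, names coloured by group). The 8 lines rise together, the dashed line marks the gap of 1.12 log2 units between 7 and 13 mice, and the Ttr values of the 13 mice span 1.31-fold.

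The range on each side of the gap differed between probe sets. Among the 13 high mice the Ttr probe set used here spanned 1.31-fold, from 16726.3 to 21917.7, and the other 3 Ttr probe sets spanned from 1.33-fold to 1.64-fold. Kl spanned 3.20-fold in these mice and Kcnj13 5.69-fold. Among the 7 low mice Ttr went from 1142.8 to 11098.9, Kl from 81.8 to 108.6 and Aqp1 from 20.3 to 29.0. Ttr lies near the top of the arrays' scale and Aqp1 below the array median in the low mice, and the part of the scale's ends in these ranges was not tested.

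Of the 8 genes in 20 mice, 9 values lay more than 0.6 log2 units from the line of a gene on the mean of the others, in 6 mice. Mouse KO_Y-580 held 3 of them, with Ttr at -1.34, Clic6 at -0.86 (both below the line) and Aqp1 at 0.70. Kcnj13 was at -1.03 in mouse WT_Y-371 and at 0.64 in mouse WT_Y-374. Ttr was at 0.71 in mouse KO_Y-575, at 0.69 in mouse WT_Y-371 and at 0.68 in mouse WT_AI-14, and Otx2 was at 0.63 in mouse KO_A-222.

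Other probe sets of the same genes were read as a check. Each was set against the mean of the other genes, its own gene left out. The other 3 Ttr probe sets had r between 0.884 and 0.953. The second Clic6 probe set had r = 0.991 and the second of Sostdc1 r = 0.962. The second of Kl, which read only 11.6 to 18.6 and did not pass the filter, had r = 0.286.

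Other genes known from choroid plexus epithelium varied with these 8. Of 29 such genes, chosen with earlier results of these data known, 28 were listed and 22 kept, and all 22 correlated above 0 with the mean of the 8 genes within groups, with adjusted permutation p under 0.05 for each. Their median r was 0.951, against -0.082 over all 16995 probe sets, and 19 of the 22 were above 0.8, as were 1.05% of all probe sets. Among secreted products, Ecrg4 (augurin) had r = 0.993 with a range of 71.2 to 2405.9, and Lbp, which binds lipopolysaccharide, r = 0.984. Among transporters and channel subunits, Kcne2 had r = 0.990 with a range of 10.2 to 497.6, and Slc4a2, an anion exchanger, r = 0.947. Cldn2, a claudin of the tight junction, had r = 0.978. Htr2c, the serotonin 2C receptor that hippocampal neurones also express, had r = 0.795. Between groups, 1 of the 22 passed in any of the 9 comparisons, Htr2c in KO_Y against WT_Y, where 0.129% of all probe sets passed. Its log2 fold change was -0.73, with a limma adjusted p of 0.0494, close to the threshold. Fold changes of the 22 were read in the main fit only.

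Among all genes outside the 8, the 12 most alike by r within groups were Ecrg4, Kcne2, Lbp, F5, Rdh5, Sulf1, Calml4, Krt18, Cldn2, Mdfic, Col8a2 and Wfdc2, from 0.993 to 0.963, over 20 mice. Of these, 8 were on the list of other choroid plexus genes and Rdh5, Sulf1, Mdfic and Col8a2 were not. At the other end, Tmsb4x had r = -0.816, the only probe set below -0.8, followed by Trim44 at -0.793.

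The mean of the 8 genes was set against marker lists of neighbouring tissues, 9 lists in all. Besides the choroid plexus list (r = 0.986), it went with Igf2 and Igfbp2, which choroid plexus and meninges share (r = 0.844, adjusted permutation p = 0.00072), and with ependymal cells (6 of 8 markers kept, r = 0.743, rho = 0.608, adjusted permutation p = 0.00465 and 0.0339). The relation with ependymal markers by rho no longer passed in 7 of 20 leave-outs of 1 mouse (WT_AU-26, WT_AU-57, WT_AI-14, WT_AI-49, WT_AI-51, KO_Y-578 or KO_Y-580, adjusted permutation p from 0.0539 to 0.161) or on linear intensity (0.134). Without group differences removed, the summed intensity of the ependymal markers ran from 860.6 to 1247.7 in WT_Y, 383.5 to 812.3 in KO_Y, 478.0 to 758.9 in WT_AU, 513.4 to 815.6 in WT_AI and 467.0 to 1027.3 in KO_A. Their part in the levels of the 8 genes was not tested. Rsph1, of the ependymal list, had r = 0.873 and Rarres2 r = 0.489. For leptomeninges r was 0.367, for thalamus 0.240, for oligodendrocytes 0.326, for blood or liver 0.411, for hippocampal neurones -0.325 and for Plvap, which marks fenestrated endothelium, 0.161, with adjusted permutation p from 0.262 to 0.522, so that none of these passed.

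**Figure D4:**
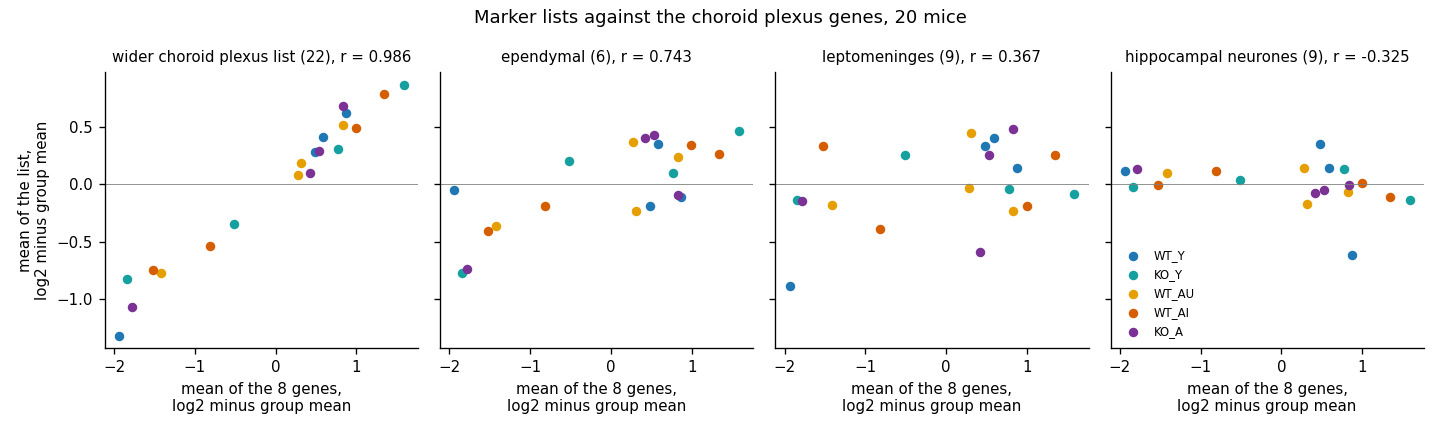
Mean log2 intensity of 4 marker lists (y axis) against the mean of the 8 choroid plexus genes (x axis), both minus the group mean, in 20 mice coloured by group. Numbers in brackets are genes kept, and r falls from 0.986 for the other choroid plexus genes to -0.325 for hippocampal neurones.

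Groups were then compared at an equal level of the other choroid plexus genes, by adding the mean of the 22 as a covariate. The standard errors of all 8 genes were smaller in every comparison, and the median of the 8 was closer to 0 in each except WT_AI against WT_AU, where it went from -0.03 to -0.15. The covariate varied closely with the mean of the 8 genes (r = 0.986 within groups). Smaller standard errors and medians follow from that choice and are no separate result. In WT_A against WT_Y, Kcnj13 went from -0.97 (SE 0.859) to 0.39 (SE 0.151), with a limma adjusted p of 0.486, and Folr1 from -1.46 (SE 0.899) to -0.06 (SE 0.205). The median of the 8 was then -0.06, and in KO_Y against WT_Y it was 0.05. None of the 8 was called in any of the 9 comparisons, with 3 values at an unadjusted p under 0.05, which 7.61%, 6.58% and 10.1% of all probe sets reached in the comparisons concerned. These were Kcnj13 in WT_A and in WT_AU against WT_Y (0.39 and 0.50, limma adjusted p of 0.486 and 0.388) and Aqp1 in WT_AI against KO_A (-0.29, limma adjusted p of 0.486). In the order of comparisons given above, the share of all probe sets called with the covariate was 0.806%, 0.571%, 0.241%, 1.47%, 0.112%, 0.0235%, 0.0% (167 at an unadjusted p under 0.05), 0.0294% and 0.0471%.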

How the data were processed

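Hippocampi were dissected after the maze test and the total RNA of each mouse was put on 1 array. Per the labels and the study's methods, the authors read the arrays with the affy package (R 2.8.0) and processed all 20 by RMA, which corrects background, equalises the arrays' distributions and summarises each probe set. The deposited values are intensities on a linear scale for 45037 probe sets (34945 listed with 1 symbol, 932 with several, 9160 with none). Equal distributions hide a shift common to all transcripts.

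Here values were turned to log2, and the 16995 probe sets that reached 100 in at least 2 arrays went into 1 limma fit (limma 3.58.1, R 4.3.3) with a mean for each of the 5 groups and 9 comparisons. Benjamini-Hochberg adjustment ran over those probe sets and p is two-sided. Exact permutation tests used the mice compared. Correlations used group-centred log2 values with 100000 permutations within groups and were adjusted over 8 genes, 28 pairs, 22 genes or 9 lists. The covariate was the mean log2 value of 22 other choroid plexus genes. The scripts were tested on simulated data. The other tools were Python (3.11.15), numpy (2.4.6), pandas (2.3.3), scipy (1.17.1) and matplotlib (3.10.9).

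The genes and marker lists were chosen with earlier results of these data known. Named are the 9 genes, genes of the wider list, the 12 most alike genes, some of the 5 least alike, up to 3 genes of each marker list, and Hsd11b1. The alternatives were no filter, a filter on 4 arrays, groups fitted alone, array weights, centred arrays, the mean of a gene's probe sets, linear intensity for correlations, the mean of the other members as covariate, and leaving out each mouse. The fit without the 4 mice of highest Alb, a number taken over from an earlier analysis, and the description of the sides of the gap, which has no test, were chosen after seeing the data. The number of arrays limits the precision, and the labels used here name no array batch.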

Additional observations from a re-analysis of the deposited data

Results flagged for a closer look

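Within groups of 4 mice, 1 mouse lay far from the other 3 on the log2 scale in 8 of the 40 combinations of gene and group, where chance gives about 1 in 20. In WT_Y this was mouse WT_Y-371, the lowest, with 8464.7 for Ttr, 91.8 for Kl, 91.0 for Folr1, 149.0 for Clic6 and 22.9 for Aqp1. In WT_AU it was mouse WT_AU-26 with 4049.5 for Ttr. In KO_A it was mouse KO_A-41 with 6507.1 for Ttr and 25.1 for Otx2. The 8 are not independent, since the genes vary together and come from 3 mice.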

How the results depend on the processing

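The number of the 8 genes called was 0 in each of the 9 comparisons under every alternative run, with the covariate too. The smallest limma adjusted p of a gene in any of them was 0.0765. It was that of Otx2 in the age effect of Hsd11b1-/- minus wild-type mice with array weights, where its log2 value was 3.67. Some alternatives called more probe sets than the main fit. Array weights called 3708 of 16995 for KO_A against KO_Y (410 in the main fit) and 995 for the age effect just named (8). They called 2181 for KO_A against WT_A (5) and 1144 for WT_AI against KO_A (2), but 0 for WT_AI against WT_AU. Most of the 16995 probe sets were not called in these comparisons either. The 8 genes also vary together, so 0 of 8 says little about them. In each alternative without a covariate, the median fold change of the 8 moved by less than 1.287 log2 units. That is the within-group SD of the mean of the 8 genes between mice. It is larger than most of the medians, so staying within it does not show that they are stable. With 1 mouse left out, the median of WT_AI against WT_AU ran from -0.54 to 0.43. For WT_AI against WT_AU, the log2 fold changes with 1 mouse left out at a time ran for Ttr from -0.62 to 0.42, Kl from -0.33 to 0.40, Folr1 from -0.71 to 0.70, Clic6 from -0.54 to 0.53. They ran for Kcnj13 from -0.59 to 0.35, Sostdc1 from -0.44 to 0.58, Aqp1 from -0.43 to 0.40 and Otx2 from -0.57 to 0.43. With array weights Ttr was 0.106, Folr1 0.082, Aqp1 0.072 and Otx2 0.023. For WT_AU against WT_Y, Ttr ran from -0.76 without mouse WT_Y-371 to 0.10 without mouse WT_AU-26. For WT_AI against KO_A, Ttr ran from -0.78 without mouse KO_A-41 to 0.14 without mouse WT_AI-49, and Kcnj13 from -1.14 to 0.002 without the same mice. Without the 4 mice of highest Alb, chosen after seeing the data, Kcnj13 turned to 0.26 in WT_A, 0.31 in WT_AU and 0.22 in WT_AI, each against WT_Y. Only mice WT_Y-371 and WT_Y-373 were then left in WT_Y. The cause of these changes was not tested. The correlation of the members with Plvap, which did not pass, ran from -0.011 without mouse KO_A-41 to 0.249 without mouse WT_AI-21. The other correlations kept their sign and their side of the threshold by r, while that with ependymal markers lost its call by rho on linear intensity and in 7 of 20 leave-outs. No paired analysis was possible because the groups share no replicate numbers.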
